A study of Mus musculus with 6 samples.

Results

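The data described here are the levels of 10 endothelial marker genes, Pecam1, Cdh5, Kdr, Tek, Tie1, Vwf, Emcn, Egfl7, Eng and Cldn5, in RNA sequencing libraries made from smooth muscle cells of the aorta. The genes were taken by symbol from the count table of the series, which holds 20199 genes, and each of the 10 had 1 row. The libraries came from C57B6 mice 12 weeks old, with 3 libraries of the genotype WT/mTmG/ Myh11ERT2, called wild type, and 3 of the genotype miR-21fl/flmTmG/Myh11ERT2, which the labels also call miR21 -/- and which is called knockout here. The reporter mTmG, in which Cre activity switches membrane fluorescence, and the inducible driver Myh11ERT2, which acts in smooth muscle rather than in endothelium, were thus shared by both genotypes. The labels name no inducer, give no route by which cells were freed, sorted or cultured, and tie no library to an animal, so the p-values below measure the spread between these libraries, part of which may be technical. Deletion of miR-21 was not checked here.

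The endothelium is the single layer of cells that lines the lumen of the aorta, next to the smooth muscle of the media, and some of it can be carried into a smooth muscle preparation. Its cells are held together by VE-cadherin, the product of Cdh5, by the immunoglobulin-family protein PECAM-1 and by the tight junction protein claudin-5, the product of Cldn5. They sense growth factors through receptor tyrosine kinases, among them the VEGF receptor gene Kdr, the angiopoietin receptor gene Tek and its relative Tie1. They store von Willebrand factor, the product of Vwf, which binds platelets to an injured wall. Eng encodes endoglin, a co-receptor for BMP9 and TGF-beta, Emcn the sialomucin endomucin, and Egfl7 a secreted protein of the vessel wall whose gene hosts the microRNA gene Mir126a.

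Library totals ran from 17123748 to 28610649 counts. The smooth muscle label fitted its own markers: Myh11, the smooth muscle myosin gene, lay between 6559.8 and 11026 CPM (TMM-scaled counts divided by the library total and multiplied by 1e+06) and Acta2, the smooth muscle actin gene, between 19401 and 25310.0 CPM. Wild-type replicate 1 stood apart in several lists of other cells given below, and the fold changes of the tested markers are given without it as well.

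The 10 markers fell into a pair of well-measured genes and 8 scarce ones. Eng and Pecam1 were present at 29.3 CPM or more in every library, Vwf at a few CPM, and the other 7 at a mean under 1 CPM. The genes split in the same way per kb of the longest coding transcript, the scale on which genes are compared here. Eng was at 14.3 and Pecam1 at 9.72 CPM per kb on the mean of 6 libraries. Vwf followed at 0.471, Egfl7 at 0.377, Cldn5 at 0.234, Tek at 0.127, Tie1 at 0.100, Emcn at 0.0763, Cdh5 at 0.0745 and Kdr at 0.0420 CPM per kb. Neighbours in this order had overlapping ranges over the 6 libraries, except that the lowest Pecam1 value (8.51 CPM per kb) was far above the highest Vwf value (0.615 CPM per kb). Eng was above Pecam1 in 5 of 6 libraries, and the order turned in knockout replicate 3. Among 13059 genes with a transcript length, Eng ranked 3744 and Pecam1 4947 by level per kb, whereas the other 8 ranked between 10642 (Vwf) and 12574 (Kdr). In the table as a whole, 6621 of 20199 genes (32.8%) had a mean under 1 CPM, against 7 of the 10 markers.

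**Figure D1:**
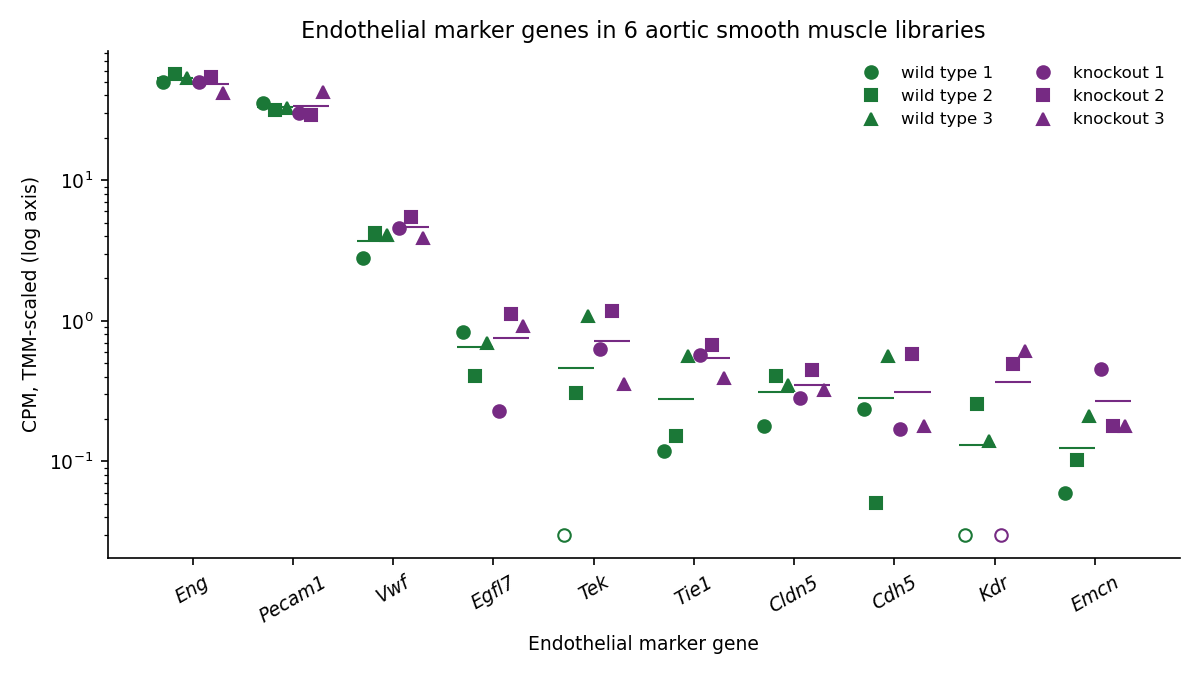
CPM of each endothelial marker (log axis) in the 3 wild-type and 3 knockout libraries, with group means as lines. Open symbols at the foot of the axis are libraries with 0 counts, for Tek and Kdr. Eng and Pecam1 lie between 29.3 and 57.1 CPM in every library, and the 7 genes from Egfl7 rightward at or below 1.17 CPM.

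Eng, at chr2:32646595-32682669 on the plus strand of mm10, was the most abundant of the 10. Its counts were 846, 1122 and 1525 in replicates 1 to 3 of wild type, or 50.3, 57.1 and 53.4 CPM. In knockout replicates 1 to 3 it had 877, 1211 and 1167 counts, or 49.9, 54.4 and 41.5 CPM. The groups overlapped, and knockout replicate 3 was the lowest library. The last 61 bases of Eng overlap Fpgs on the opposite strand, and since it is not known whether counting kept strand, reads there could belong to either gene.

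Pecam1, at chr11:106654217-106750628 on the minus strand, had 594, 625 and 926 counts in wild type, or 35.3, 31.8 and 32.4 CPM. In knockout it had 526, 652 and 1181 counts, or 29.9, 29.3 and 42.04 CPM. Knockout replicate 3, the lowest library for Eng, was the highest for Pecam1. The span counted for Pecam1 was 96.4 kb, against 61.1 kb for the RefSeq gene, and reached 35.3 kb further upstream of its start. No other row of the table lies within that span. Whether the counts came from the RefSeq exons or from the upstream extension was not tested.

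Vwf, at chr6:125546774-125686679, had 47, 83 and 116 counts in wild type, or 2.79, 4.22 and 4.06 CPM. In knockout it had 80, 121 and 109 counts, or 4.55, 5.43 and 3.88 CPM. The groups overlapped, with wild-type replicate 1 the lowest.

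Cdh5, the gene of VE-cadherin and a widely used endothelial marker, was close to its detection limit. It lies at chr8:104101625-104144511 and had 4, 1 and 16 counts in wild type and 3, 13 and 5 in knockout. These are 0.238, 0.0508 and 0.560 CPM and 0.171, 0.584 and 0.178 CPM. The 16 counts of wild-type replicate 3 have an exact 95% Poisson interval of 0.320 to 0.910 CPM, and the single count of wild-type replicate 2 one of 0.00129 to 0.283 CPM, and these do not overlap. Intervals of this kind cover counting error only. Summed over the 6 libraries Cdh5 had 42 counts against 4504 for Pecam1, and per kb Pecam1 was 131 times and Eng 192 times as high.

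The receptor genes were equally scarce. Kdr, at chr5:75932827-75978458, had 0, 5 and 4 counts in wild type and 0, 11 and 17 in knockout. The 0 counts of wild-type replicate 1 and knockout replicate 1 allow up to 0.178 and 0.171 CPM. The other libraries were at 0.254 and 0.140 CPM in wild type and 0.494 and 0.605 CPM in knockout. Per kb, Eng was 340 times as high as Kdr on the mean of 6 libraries.

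Tek, at chr4:94739289-94874976, had 0, 6 and 31 counts in wild type and 11, 26 and 10 in knockout. In CPM this was up to 0.178 (for the 0 counts), 0.305 and 1.09 in wild type and 0.626, 1.17 and 0.356 in knockout. Wild-type replicate 3 and knockout replicate 2 were high and the remaining libraries of both genotypes low. Tie1, at chr4:118471191-118490061, had 2, 3 and 16 counts, or 0.119, 0.153 and 0.560 CPM, in wild type. In knockout it had 10, 15 and 11 counts, or 0.569, 0.674 and 0.392 CPM. The groups overlapped through wild-type replicate 3.

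The remaining genes were Cldn5, Emcn and Egfl7. Cldn5, at chr16:18776847-18778260, had 3, 8 and 10 counts in wild type and 5, 10 and 9 in knockout, between 0.178 and 0.449 CPM. Emcn, at chr3:137341067-137432185, had 1, 2 and 6 counts in wild type and 8, 4 and 5 in knockout, between 0.0594 and 0.455 CPM, the fewest counts of the 10 markers (26 over the 6 libraries). Egfl7, at chr2:26580014-26593120, had 14, 8 and 20 counts in wild type and 4, 25 and 26 in knockout, between 0.228 and 1.12 CPM. The last 64 bases of Egfl7 overlap Agpat2 on the opposite strand, which was at 18.3 CPM, so a part of these few counts is uncertain.

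The bases before the start site are shown for Eng, the most abundant marker, and for Kdr, Tie1 and Cldn5, 3 of the scarce ones, since their levels per kb differed by 61.0 to 340 times from that of Eng. Sequences are from RefSeq (GRCm38.p6, the build of mm10), each of 250 bases, written 5′ to 3′ on the strand of the gene and ending at the base before the start of a RefSeq transcript. Capitals mark GGAA or its complement TTCC, the core that ETS-family transcription factors such as Erg and Fli1 recognise. They lie at chr2:32646345-32646594 (plus), chr5:75978456-75978705 (minus), chr4:118489850-118490099 (minus) and chr16:18776597-18776846 (plus). The deposited spans of Tie1 and Kdr begin further upstream than these transcript starts (118489849 and 75978455), so that 212 bases of the Tie1 window and 3 of the Kdr window lie inside the gene as counted. The RefSeq gene of Kdr begins further upstream still, at 75979072, so the whole Kdr window lies inside that gene.
Eng: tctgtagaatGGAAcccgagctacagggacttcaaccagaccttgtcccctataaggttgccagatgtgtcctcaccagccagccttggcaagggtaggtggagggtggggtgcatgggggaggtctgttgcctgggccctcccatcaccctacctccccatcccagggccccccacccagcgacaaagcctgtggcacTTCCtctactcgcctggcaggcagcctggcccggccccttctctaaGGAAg
Kdr: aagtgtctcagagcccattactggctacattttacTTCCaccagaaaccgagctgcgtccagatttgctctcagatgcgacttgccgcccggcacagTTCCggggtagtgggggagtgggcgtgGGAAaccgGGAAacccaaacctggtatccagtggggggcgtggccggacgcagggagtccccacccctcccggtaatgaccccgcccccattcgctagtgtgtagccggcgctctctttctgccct
Tie1: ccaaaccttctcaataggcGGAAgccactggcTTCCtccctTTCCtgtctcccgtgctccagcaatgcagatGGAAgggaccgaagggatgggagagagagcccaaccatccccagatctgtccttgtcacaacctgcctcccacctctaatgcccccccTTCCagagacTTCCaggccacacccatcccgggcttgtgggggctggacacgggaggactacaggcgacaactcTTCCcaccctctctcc
Cldn5: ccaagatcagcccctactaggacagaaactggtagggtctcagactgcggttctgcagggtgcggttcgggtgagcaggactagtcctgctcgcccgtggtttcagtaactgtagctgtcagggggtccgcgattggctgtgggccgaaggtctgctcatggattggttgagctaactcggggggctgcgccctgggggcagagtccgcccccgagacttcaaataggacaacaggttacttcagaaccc

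The core GGAA occurred 3 times in the Eng sequence, 4 times in Kdr, 7 times in Tie1 and 0 times in Cldn5, counted on both strands. Of 32851 RefSeq windows of this length, 93.4% held at least 1 core, with a median of 3, and 18.03% held 5 or more. The longer form GGAAGT occurred once each in Eng, Kdr and Tie1 and was held by 19.7% of all windows. The CArG box, the element bound by serum response factor in smooth muscle genes, occurred 0 times in these 4 sequences and in 1.47% of all windows. Searched in the same strict form, the window of the smooth muscle gene Acta2 also held 0. The Acta2 window holds ccctatatgg, which the strict form does not match. That form is rare in all windows and Acta2 is the only smooth muscle gene shown. The count therefore cannot tell whether the markers differ from smooth muscle genes. Of the 10 markers, 7 had a window in the table, and Pecam1, Cdh5 and Vwf had none.

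Summed over the 10 markers, the level was nearly the same in every library, and it was made almost wholly of Eng and Pecam1. Wild-type libraries had sums of 89.8, 94.7 and 93.5 CPM and knockout libraries 86.7, 93.8 and 90.4 CPM, each in the order of the replicate numbers. Eng and Pecam1 took between 89.2% (knockout replicate 2) and 95.3% (wild-type replicate 1) of it. The group means were 92.7 ± 2.55 CPM (SD, n = 3) in wild type and 90.3 ± 3.51 CPM (SD, n = 3) in knockout, a log2 ratio of −0.04, and the groups overlapped. As a percentage of Myh11, the sum was 1.37, 0.966 and 0.945 in wild type and 0.787, 1.03 and 0.942 in knockout, with wild-type replicate 1, the library with the least Myh11, the highest. Scaled by library totals alone, the log2 ratio of the summed level was 0.0028.

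The sum of the 8 scarce markers varied between libraries of the same genotype, and its mean was higher in knockout. It was 4.22, 5.90 and 7.67 CPM in wild type and 6.89, 10.1 and 6.83 CPM in knockout. The means were 5.93 ± 1.72 CPM (SD, n = 3) and 7.94 ± 1.87 CPM (SD, n = 3), a log2 ratio of 0.42 with overlapping groups. That ratio was 0.23 without wild-type replicate 1, 0.21 without knockout replicate 2 and 0.65 without wild-type replicate 3. Wild-type replicate 1 had the lowest value for 6 of the 8 scarce markers, with Kdr tied at 0 with knockout replicate 1. Knockout replicate 2 had the highest for 6 of the 8. Without Vwf, the 7 scarcest markers summed to 24, 33 and 103 counts in wild type and 41, 104 and 83 in knockout, or 1.43, 1.68 and 3.61 CPM and 2.33, 4.67 and 2.95 CPM. The 3 libraries with the lowest sums, wild-type replicates 1 and 2 and knockout replicate 1, were also the 3 with the fewest total counts (17123748, 20177471 and 17216701). The part of depth in this was not tested. In bulk libraries, fewer endothelial cells and less of these RNAs per cell cannot be told apart, and with no endothelial library in the series these sums were not turned into a share of cells.

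Between genotypes, 0 of the 10 markers passed the test. The low-count filter kept 6 of them (Eng, Pecam1, Vwf, Egfl7, Tek and Tie1) and removed Cdh5, Cldn5, Kdr and Emcn. edgeR's quasi-likelihood test called 0 of the 6 at an adjusted p under 0.05, against 0.00% of the 15185 genes tested, and 0 of the 6 had an unadjusted p under 0.05, against 6.29% of all genes. The groups overlapped for each of the 10, while they did not overlap for 14.5% of the genes tested. DESeq2, which called 0.475% of its genes, gave an adjusted p for 4 of the 6 (not for Tek and Tie1) and called 0, and limma voom called 0 of the 6 and 0.00% of all genes.

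Eng, Pecam1 and Vwf bounded the difference most tightly. For Eng the log2 fold change, knockout over wild type, was −0.14 ± 0.13 (SE, 95% interval −0.44 to 0.15, edgeR adjusted p = 0.806), from 53.6 ± 3.38 and 48.6 ± 6.52 CPM (SD, n = 3 each). Leaving out 1 library gave Eng values from −0.23 (without knockout replicate 2) to −0.04 (without knockout replicate 3), with −0.18 without wild-type replicate 1. For Pecam1 it was 0.03 ± 0.16 (95% interval −0.33 to 0.39, edgeR adjusted p = 0.973), from 33.2 ± 1.88 and 33.8 ± 7.18 CPM (SD, n = 3 each). Its sign turned when wild-type replicate 2 (−0.0018) or knockout replicate 3 (−0.16) was left out, and it was 0.08 without wild-type replicate 1. Vwf was at 0.32 ± 0.24 (95% interval −0.23 to 0.86, edgeR adjusted p = 0.785), from 3.69 ± 0.781 and 4.62 ± 0.779 CPM (SD, n = 3 each), and 0.16 without wild-type replicate 1.

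The scarce markers other than Vwf had intervals several log2 units wide. Tie1 was at 0.83 (95% interval −0.57 to 2.24), Tek at 0.49 (−1.49 to 2.46) and Egfl7 at 0.26 (−1.01 to 1.54), with edgeR adjusted p-values of 0.784, 0.893 and 0.915. Tek was at −0.03 without wild-type replicate 1, −0.08 without knockout replicate 2 and 2.11 without wild-type replicate 3. Tie1 was at 0.51 without wild-type replicate 1 and 1.94 without wild-type replicate 3. Egfl7 was at −0.09 without knockout replicate 2, 0.66 without knockout replicate 1, 0.10 without knockout replicate 3, and 0.46 and 0.03 when wild-type replicates 1 and 2 were left out in turn. In a fit without the filter, Kdr was at 1.45 (−0.98 to 3.88), Emcn at 0.99 (−0.85 to 2.83), Cldn5 at 0.16 (−1.15 to 1.46) and Cdh5 at 0.07 (−1.79 to 1.94). The intervals of Eng, Pecam1 and Vwf lay within a 2-fold difference in either direction. Those of these 7 genes reached beyond 2-fold higher in knockout, and those of Tek, Egfl7, Cldn5 and Cdh5 beyond 2-fold lower as well.

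**Figure D2:**
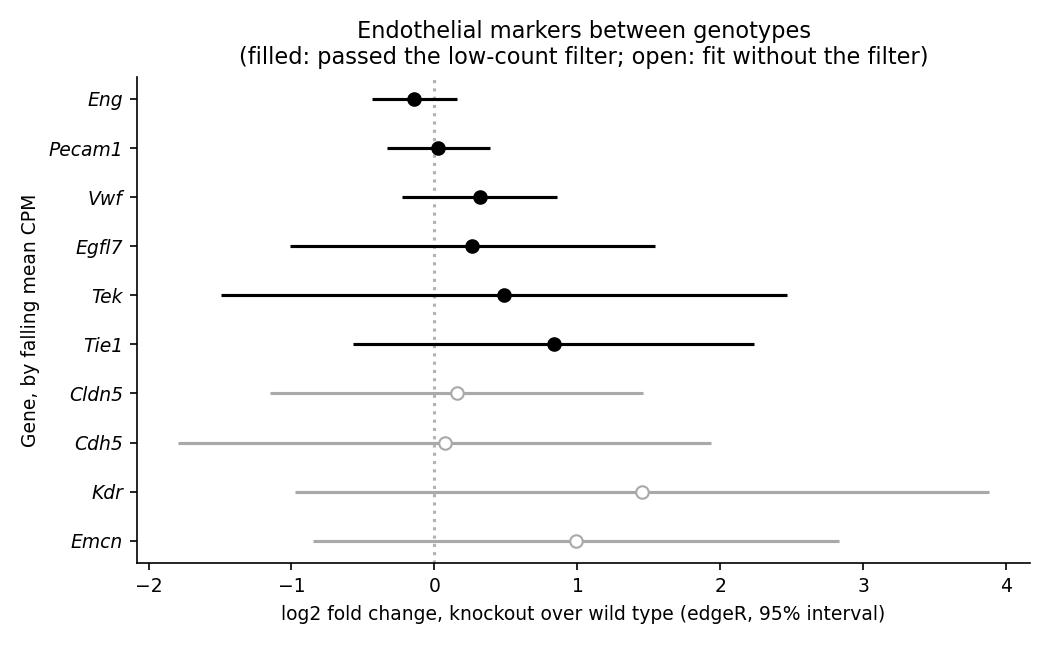
Log2 fold change of each marker, knockout over wild type, with its 95% interval from edgeR. Filled symbols are genes that passed the low-count filter and open symbols are from the fit without it. Each interval spans 0, from −0.44 to 0.15 for Eng to −0.98 to 3.88 for Kdr.

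Other endothelial genes covered a wide range of levels. In 5 lists (transcription factors, surface and junction genes, vasoactive and haemostatic genes, arterial and capillary genes) 54 of 60 genes had a row in the table, and the other 6 were not analysed here. Of the 54, 24 had a mean under 1 CPM, 13 between 1 and 10 CPM and 17 at 10 CPM or more. Among all genes of the table, 32.8% were under 1 CPM and 45.2% at 10 CPM or more.

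Among the scarce genes were several that are strongly tied to endothelium. The SOX factors of vascular development Sox17 (mean 0.169 CPM), Sox18 (0.206 CPM) and Sox7 (0.394 CPM) were near 0, as were the endothelial guidance receptor gene Robo4 (0.0613 CPM), the adhesion gene Icam2 (0.385 CPM) and the arterial Notch ligand gene Dll4 (0.0929 CPM). Nos3, the gene of endothelial nitric oxide synthase, ranged from 0.476 to 1.93 CPM. Ptprb, the gene of the vascular phosphatase that acts on the Tek receptor, ranged from 0.892 to 3.91 CPM and was lowest in wild-type replicate 1.

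Others had a mean above 10 CPM. Erg, an ETS factor gene widely used as a nuclear endothelial marker, ranged from 32.6 to 47.6 CPM, and its level of 12.1 CPM per kb lay between those of Eng and Pecam1. Esam, an adhesion molecule gene, ranged from 38.9 to 63.8 CPM (27.5 CPM per kb), and Plvap, the gene of the fenestral diaphragm protein, from 15.9 to 30.1 CPM (10.3 CPM per kb). Flt1, which encodes a VEGF receptor related to that of Kdr, ranged from 10.999 to 16.2 CPM (1.87 CPM per kb). Esam was above Eng per kb, as were Klf2, a flow-responsive factor gene (347), Fabp4, a fatty acid binding protein gene (92.05), and Ace, the gene of angiotensin-converting enzyme (35.2). So were Plat, the gene of tissue plasminogen activator (29.1), Thbd, the thrombomodulin gene (21.6), Ece1 (18.2) and Efnb2 (16.9). In these libraries, then, RNA of Erg, Esam, Plvap, Eng and Pecam1 was found at 9.72 to 27.5 CPM per kb with Cdh5 at 0.0745. Which cells carried it was not tested.

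**Figure D3:**
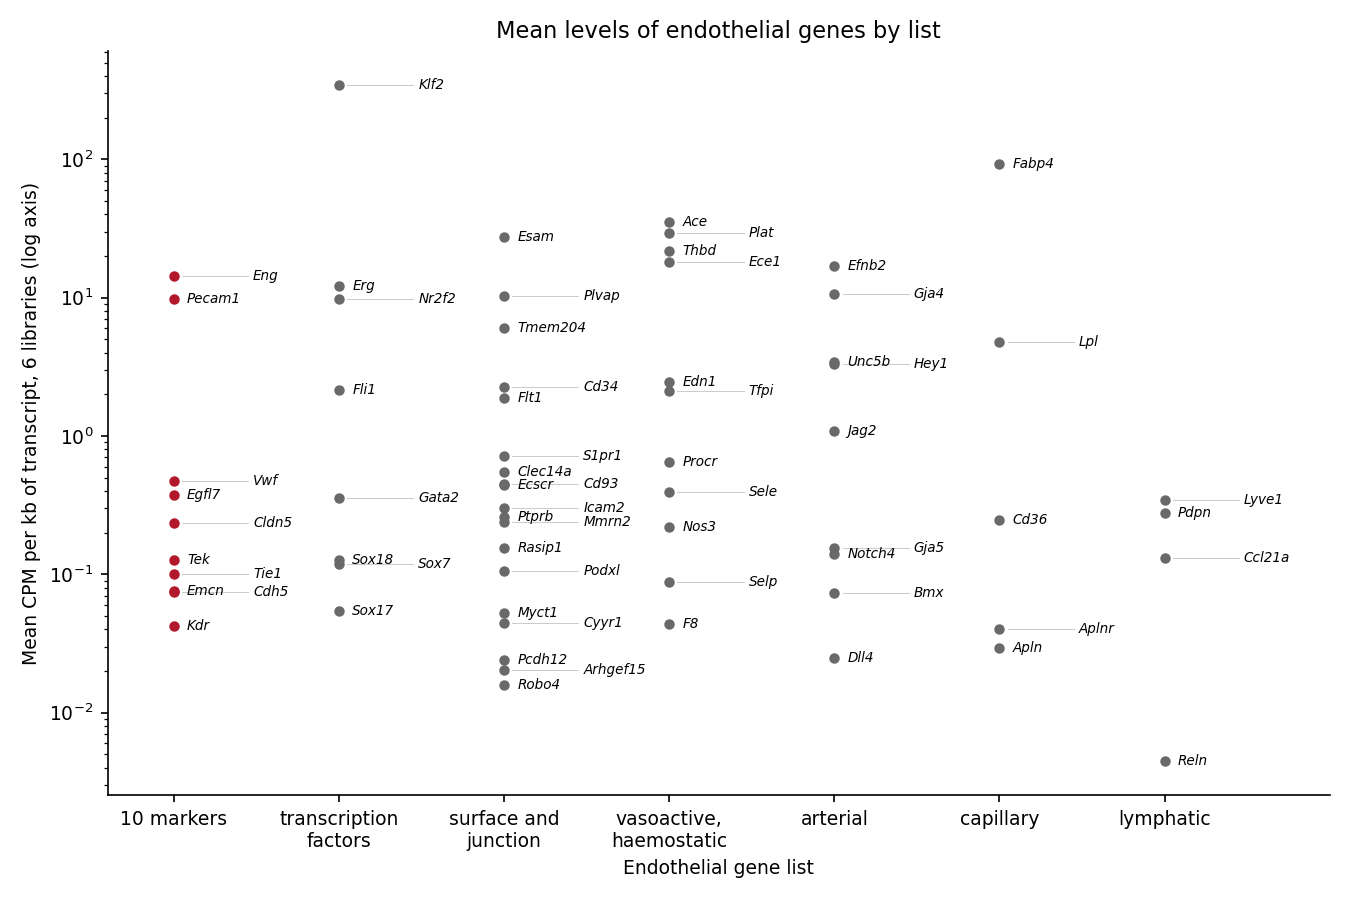
Mean CPM per kb of transcript over the 6 libraries (log axis) for the 10 markers (red) and 6 other lists of endothelial genes, with 1 point per gene (66 of 68 genes have a length). Eng and Pecam1 lie near Erg, Nr2f2 and Plvap. The other 8 markers run from 0.0420 (Kdr) to 0.471 (Vwf) CPM per kb. The SOX factors and Nos3 lie within that range, and Robo4 (0.0158) and Dll4 (0.0248) below it.

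Between genotypes, 37 of the 54 were tested and 0 passed in edgeR. At an unadjusted p under 0.05 edgeR listed 6 (16.2%, against 6.29% of all genes), 3 in each direction, and the median log2 fold change of the 37 was 0.03, against −0.0008 over all genes tested. The groups did not overlap for 3 of the 37 (8.11%, a lower share than the 14.5% of all genes tested), Tmem204, S1pr1 and Hey1. Without wild-type replicate 1, 3 of the 37 had an unadjusted p under 0.05 (against 7.51% of all genes) and the median was −0.02. In that setting the groups did not overlap for 6 of the 37 (16.22%), and the share over all genes was not computed. Tmem204, a membrane protein gene of vessels, had 8.36 ± 0.997 CPM in the wild-type libraries and 14.1 ± 4.68 CPM in the knockout ones (SD, n = 3 each), a log2 fold change of 0.76 ± 0.24 SE. S1pr1, a sphingosine phosphate receptor gene, had 0.73 and Hey1, a Notch target gene, 0.39. The 3 with lower values were Edn1, the endothelin gene (−0.92), Efnb2, an arterial ephrin gene (−0.45), and Unc5b, a netrin receptor gene (−0.39). Their edgeR adjusted p-values ran from 0.716 for Tmem204 to 0.778.

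The ligands and co-receptors of the markers were mostly well measured. Of 18 genes in this list 16 had a row, and each of the 16 was tested. Vegfa, the ligand gene for the Kdr receptor, ranged from 34.5 to 48.4 CPM with a log2 fold change of 0.05. Angpt2 and Angpt1, which encode ligands of the Tek receptor, had opposite signs. Angpt2 had means of 59.2 ± 9.75 and 80.8 ± 15.4 CPM in wild type and knockout (SD, n = 3 each; 0.45 ± 0.17 SE). Angpt1 was at 2.42 ± 0.600 and 1.35 ± 0.474 CPM (SD, n = 3 each; −0.87 ± 0.35 SE). Neither passed (edgeR adjusted p = 0.776 and 0.778). Acvrl1, whose product is the receptor that endoglin assists, ranged from 36.9 to 48.7 CPM (−0.15), at 11.1 CPM per kb. Fitted means were higher in knockout for 6 genes of the list and lower for 10 (median −0.05, against −0.0008 over all genes tested). edgeR called 0 of the 16, against 0.00% of all genes. Angpt1 and Angpt2 were the 2 of the 16 at an unadjusted p under 0.05, against 6.29% of all genes. Without wild-type replicate 1 the fitted means were higher for 8 and lower for 8 (median 0.0023).

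Genes of junction partners and of other cadherins were mostly abundant. Ctnnb1, the beta-catenin gene, ranged from 488.6 to 636.8 CPM and Jup, the plakoglobin gene, from 160.05 to 210.5 CPM. Cdh13, the T-cadherin gene, stood at 146 CPM per kb and Cdh2, the N-cadherin gene, at 0.421 CPM per kb, against the 0.0745 of Cdh5. Of 12 genes in this list 11 were tested, with fitted means higher in knockout for 10 and lower for 1 (median 0.16). edgeR called 0 of them, with 0 at an unadjusted p under 0.05, against 6.29% of all genes. Without wild-type replicate 1 the fitted means were higher for 8 and lower for 3 (median 0.10). That library had the lowest summed level of this list (2089 CPM, against 2837.5 to 3080.8 CPM in the other 5 libraries).

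Other cell types that express PECAM-1 were then examined through their markers. In the macrophage list 13 of 14 genes had a row, 10 with a mean under 1 CPM, and the sum ranged from 5.35 to 12.1 CPM in wild type and from 2.79 to 11.4 CPM in knockout. Ptprc, the pan-leukocyte CD45 gene, reached at most 0.560 CPM, with 0 counts in replicates 1 and 2 of wild type, and Adgre1, the gene of the macrophage marker F4/80, had 0 counts in 4 libraries. The 3 genes with a mean above 1 CPM were Lyz2, Cd14 (0.951 to 1.86 CPM) and Cd68 (0.512 to 2.68 CPM). Lyz2 stood at 0.416, 4.12 and 5.25 CPM in replicates 1 to 3 of wild type. In knockout replicates 1 to 3 it stood at 0.569, 4.45 and 1.07 CPM. Wild-type replicate 3 and knockout replicate 2 had the highest macrophage sums, 12.1 and 11.4 CPM, and were also the pair with the highest sums of the 7 scarcest endothelial markers. The part of these cells in those sums was not tested. For Pecam1 the order was different: the same pair stood at 32.4 and 29.3 CPM, against 42.04 CPM in knockout replicate 3.

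Platelets carry PECAM-1 and von Willebrand factor. In the platelet list 8 of 10 genes had a row and 6 had a mean under 1 CPM. The defining genes Itga2b (0.748 to 1.37 CPM), Gp9 (at most 0.140 CPM), Gp1ba (0.0508 to 0.560 CPM) and Pf4 (0.0569 to 0.805 CPM) were scarce, whereas Gp1bb, which encodes another subunit of the receptor for von Willebrand factor, ranged from 3.57 to 6.84 CPM. The list's sum, between 231.7 and 350.2 CPM, was almost wholly Itgb3, an integrin gene at 303.6 CPM on the mean of 6 libraries. Lymphocyte genes were nearly undetected, with 3 of 10 in the table and a sum of at most 0.458 CPM. Lymphatic endothelial genes had 4 of 7 in the table and sums of 1.58 to 2.19 CPM in wild type and 0.943 to 1.78 CPM in knockout, with Lyve1, the hyaluronan receptor gene, at 0.398 to 1.17 CPM.

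Red cell genes were far higher than any of these. The erythroid list summed to 386.8, 993.2 and 1186.4 CPM in wild type and 1019.2, 898.4 and 822.8 CPM in knockout, so wild-type replicate 1, the lowest library for the 8 scarce endothelial markers, was also the lowest here. The sum was mostly from the globin genes, such as Hbb-bs at 165.2 CPM in wild-type replicate 1 and 349.2 to 546.8 CPM elsewhere. Hba-a1 and Hba-a2 are near-identical copies, so their separate counts are uncertain. The red cell anion exchanger gene Slc4a1 was at most at 0.142 CPM.

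**Figure D4:**
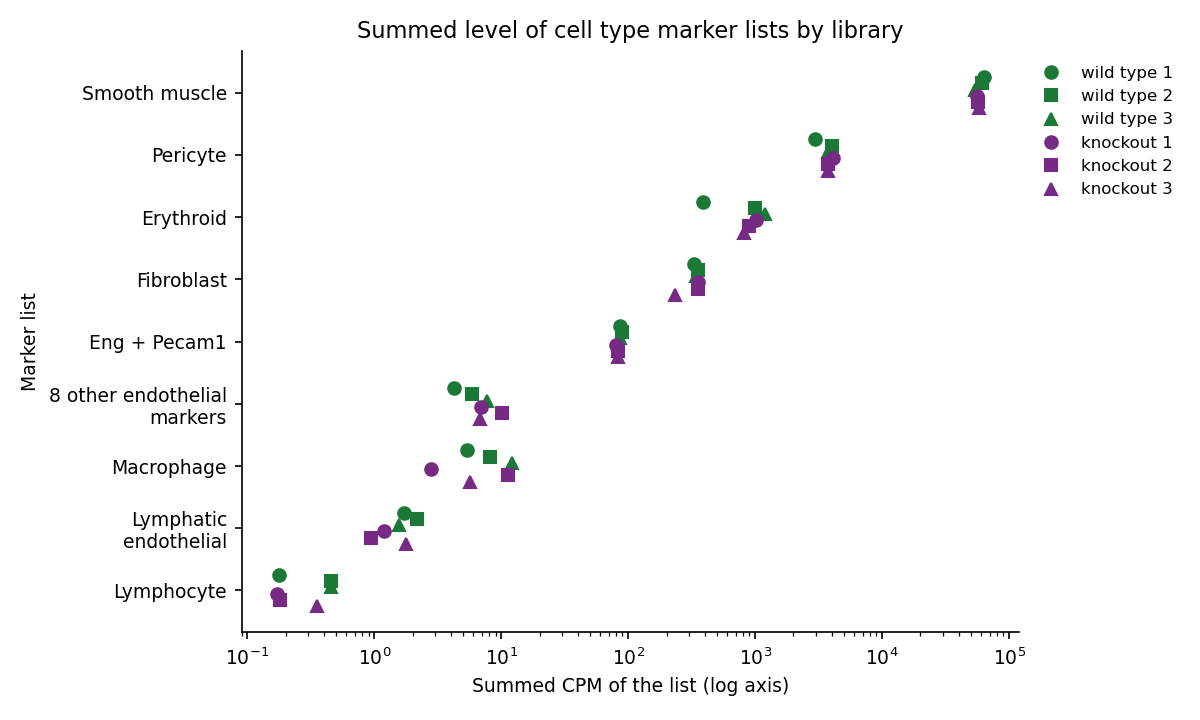
Summed CPM of each marker list (log axis) in the 6 libraries. Lists differ in their number of genes and in transcript length, so libraries are to be compared within a list. Eng and Pecam1 together differ little between libraries, whereas the 8 other endothelial markers run from 4.22 to 10.1 CPM, the macrophage list from 2.79 to 12.1 CPM and the erythroid list from 386.8 to 1186.4 CPM.

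The pattern of the 10 markers over the 6 libraries was compared with that of 11416 other genes with ordinary symbols and a mean of at least 1 CPM. On the log2 CPM scale, with each gene centred on its mean, the mean profile of the markers took the values −0.67, −0.26 and 0.30 over replicates 1 to 3 of wild type and −0.11, 0.58 and 0.16 over those of knockout. The nearest gene was F13a1, the gene of the A subunit of coagulation factor XIII, with a root mean square difference of 0.09 log2 units over the 6 libraries. It was followed by Hyls1 (0.13), Ulk4 (0.14), Abca7 (0.15), Cd14 (0.15), Prdm15 (0.15), Farp1 (0.15) and Pign (0.15). Cd14, a monocyte surface gene, belongs to the macrophage list, and 0 of the 8 belong to the endothelial lists. The profile weights the 10 markers equally, so that 8 of its 10 terms come from scarce genes with wide counting intervals. Each nearest gene was also lowest in wild-type replicate 1, which follows from the choice by nearness to a profile that is lowest there.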

How the data were processed

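RNA sequencing of 6 libraries was analysed from the deposited table of expected counts per gene; these were not whole for every gene (65.4% were whole to within 0.01) and carry no normalisation, as read from the values. RNA came from a Trizol extraction and libraries from the TruSeq kit, per the labels' protocols. STAR 2.6, DESeq2 and mm10 are named in the submitters' processing notes, whereas for the counting tool and its strand setting nothing was found (not given in the sources used here). Stop positions in the table lie 1 past the last base and were reduced by 1.

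Counts were rounded, filtered with filterByExpr (minimum count 10; 15185 genes kept) and scaled by TMM. Groups were compared by the 2-sided quasi-likelihood test of edgeR 4.0.16 in R 4.3.3 with robust estimation, and p-values were adjusted over all 15185 genes by the Benjamini-Hochberg method, with 0.05 as the threshold. It was tested on simulated data. Standard errors are the size of the log2 fold change over the square root of F. Log2 CPM used a prior count of 2. DESeq2 1.42.0 and limma 3.58.1 (voom), other scalings, no filter, a replicate block and leaving out each library were alternatives. Transcript lengths are from GENCODE vM1, used for length only.

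The members and gene lists were chosen with earlier results of these data known. Named were the 10 markers, up to 3 genes of each list with the highest mean and 3 with the smallest p, 8 genes nearest in profile, and some ligands and receptors of the markers. Named after their values were seen were Sox7, Sox17, Sox18, Robo4, Icam2, Dll4, Nos3, Ptprb, Cdh2, Dcn, Higd1b, Vtn and the defining genes of blood cells and platelets. The intervals use a Poisson model at 95%, and a count of 0 is taken to allow 3 counts.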

Additional observations from a re-analysis of the deposited data

How the results depend on the processing

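The count of 0 markers called held under each alternative run: size factors of DESeq2 or library totals in place of TMM, no low-count filter, DESeq2, limma voom, the replicate block and leaving out each library. Over all genes, edgeR called 0, DESeq2 68, and edgeR between 0 and 9 when 1 library was left out (9 without wild-type replicate 1 and 1 without wild-type replicate 2). At an unadjusted p under 0.05 the count was 955, 572 with the replicate block, and between 601 (without knockout replicate 1) and 1244 (without wild-type replicate 3) with 1 library left out. The markers' log2 fold changes kept their sign in 67 alternative values and turned in 5. These 5 came from leaving out 1 library, with ranges over those 6 fits of −0.16 to 0.12 for Pecam1, −0.079 to 2.11 for Tek and −0.089 to 0.66 for Egfl7. Whether the shared replicate numbers pair the libraries is not known. Deviations from the group means correlated at −0.27, −0.18 and −0.08 between libraries of the same number. Between libraries of different numbers the values ran from −0.11 to 0.21. With 3 libraries per group these values depend on one another, so they cannot decide on pairing. With the block, edgeR called 0 markers and gave log2 fold changes of 0.87 for Tek and 1.00 for Tie1. The sum over the 8 scarce markers was added after the data were seen. Leaving wild-type replicate 1 out of the list counts was also added then. The 7 genes under 1 CPM rest on 26 to 97 counts over the 6 libraries.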

Other observations

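Genes that mark pericytes, the mural cells of small vessels, were abundant beside the scarce endothelial markers. Rgs5 ranged from 1146.5 to 1541.6 CPM, Cspg4, the NG2 proteoglycan gene, from 1229.8 to 1860.7 CPM, and Pdgfrb, a PDGF receptor gene, from 275.6 to 496.4 CPM, whereas Higd1b and Vtn were at most at 0.350 and 0.735 CPM. Of 8 genes, 6 were tested and 0 passed in edgeR, with a median log2 fold change of 0.11. At an unadjusted p under 0.05 there were 0 of the 6, against 6.29% of all genes. Smooth muscle is known to transcribe several of these genes too.

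Fibroblast genes were all present, with sums of 331 to 353.6 CPM in wild type and 352.9, 354.5 and 232.6 CPM in knockout replicates 1 to 3. Knockout replicate 3, the lowest library for this list, was also the lowest for Eng (41.5 CPM) and the highest for Pecam1 (42.04 CPM). Dcn, the decorin gene, was at 28.2 CPM in knockout replicate 3 and at 51.4 to 86.8 CPM in the other libraries. Adipocyte genes had 1 of 8 members in the table (a sum of at most 0.142 CPM) and mesothelial genes 1 of 6 (at most 0.214 CPM).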
